A study of Mus musculus with 4 samples.

Results

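The genes described here are 10 components of signalling through gp130, the receptor chain shared by the interleukin-6 family of cytokines. They were chosen by symbol as a ligand (Lif), receptor chains (Lifr, Osmr, Cntfr, Il6ra and Il6st, which encodes gp130), kinases (Jak1 and Jak2), a transcription factor (Stat3) and its feedback inhibitor (Socs3). All 10 were found among the 24421 genes of the count tables, and all 10 were counted often enough to be tested. RNA came from neural stem cells of the embryonic mouse cortex (C57BL/6J, embryonic day 17) that had been grown for 1 day with basic FGF and EGF. The labels name no cytokine of the gp130 family in that medium. The control group, labelled Prrc2bf/f, carried floxed alleles of Prrc2b and no Cre (2 libraries). The group labelled Prrc2bf/f; Nestin-Cre carried the same floxed alleles together with a Cre transgene under Nestin regulatory sequence, which is active in neural progenitors (2 libraries, called knockout below). The comparison asks which transcripts differ when Prrc2b is targeted in these progenitors.

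Most cytokines of this family bring receptor chains together in a complex that includes gp130. Lif signals through Lifr with gp130, oncostatin M through Osmr with gp130, and Cntf through the anchored chain Cntfr together with Lifr and gp130. JAK kinases bound to the chains phosphorylate them and STAT3, which then enters the nucleus and activates genes that include Socs3, whose protein binds gp130 and the JAKs and shuts the signal down. In the developing cortex the pathway is known for driving progenitors toward the astrocyte fate, with Gfap as a classic target, and in the adult brain for reactive gliosis.

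STAT factors bind a short palindrome, TTCNNNGAA, and the promoter of Socs3 is shown because this gene is the textbook readout of the pathway. The 250 bases before the RefSeq start site of Socs3 (GRCm38.p6, chr11:117969367-117969616, minus strand) hold 1 match, in capitals, which begins 154 bases upstream of that start.
Socs3: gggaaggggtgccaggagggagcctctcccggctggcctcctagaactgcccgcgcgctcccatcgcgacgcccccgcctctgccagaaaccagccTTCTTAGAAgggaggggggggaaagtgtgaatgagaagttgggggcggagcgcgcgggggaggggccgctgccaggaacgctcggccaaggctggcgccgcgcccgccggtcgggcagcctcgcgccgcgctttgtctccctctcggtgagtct
The coding transcript of Socs3 in GENCODE begins 180 bases farther downstream. The bases directly before that start are thus not in the printed stretch and were not searched, so a match there would not have been seen. Because the motif is its own reverse complement, a search of 1 strand covers both. No other motif was searched. In windows from 250 bases before to 50 bases after the start, Socs3 was the single gene of the 10 with a match, against 9.55% of the 27025 genes in the promoter table (8.3% of 32851 windows). A match of letters is a description and not evidence of binding, and its absence in the other windows says nothing of STAT3.

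Gene totals of 25936794 to 28263272 counts gave a depth at which 3 counts stand for 0.106 to 0.115 counts-per-million (CPM). Libraries of the same group differed by more than counting noise (chi-square per gene of 1.96 and 2.2, where noise alone gives 1) and were kept as separate samples. Whether the replicates are separate animals or cultures is not stated in the labels, and the p-values therefore cover the variation among these libraries alone, which may be technical. Levels are CPM after scaling by the trimmed mean of M values, fold changes are log2 values of knockout over control ± SE, and adjusted p-values are from the edgeR quasi-likelihood test with Benjamini-Hochberg adjustment over all 15012 genes tested. Prrc2b itself stood at 588.5 and 594.5 CPM in control and at 574.6 and 572.7 CPM in the libraries labelled knockout (log2 fold change -0.04 ± 0.02, adjusted p = 0.134), so its gene total does not check the label. Reads from exons outside the floxed part would still be counted, and the sources used here do not give that part. Y-linked transcripts (4 genes) summed to 67.5 and 64.7 CPM in control and to 0 counts in both knockout libraries. Embryo sex, Cre and genotype thus vary together and cannot be told apart in any value below. The 10 neural stem cell markers were all present, with a summed level of 7400 to 7443 CPM in control and 6419 to 6438 CPM in knockout. They did not move together: 4 were lower, 3 were higher and 3 did not pass, with a median log2 fold change of -0.0445. Most of the difference in the sum lay in Vim (3003 to 2416 CPM) and Slc1a3 (1464 to 1142 CPM). Hes5 rose from 33.5 to 62.1 CPM, and Sox2, Pax6 and Fabp7 did not pass.

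All 10 gp130 pathway genes differed between the groups at adjusted p under 0.05, 8 of them lower and 2 higher in knockout. Over all genes tested 33.1% passed, 18.1% as lower and 15.1% as higher. The ligand Lif, the receptor chains Il6ra and Osmr, and the inhibitor Socs3 differed by at least 1.5-fold, all downward. That size was reached by 4 of the 10 genes and by 5.75% of all genes. Il6st, Jak1, Stat3 and Cntfr were lower by smaller amounts, while Lifr and Jak2 were higher. The median log2 fold change was -0.33, against 0.0047 over all genes. For each of the 10 genes both knockout libraries lay on the same side of both controls, without overlap, as was the case for 64.9% of all genes tested.

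**Figure D1:**
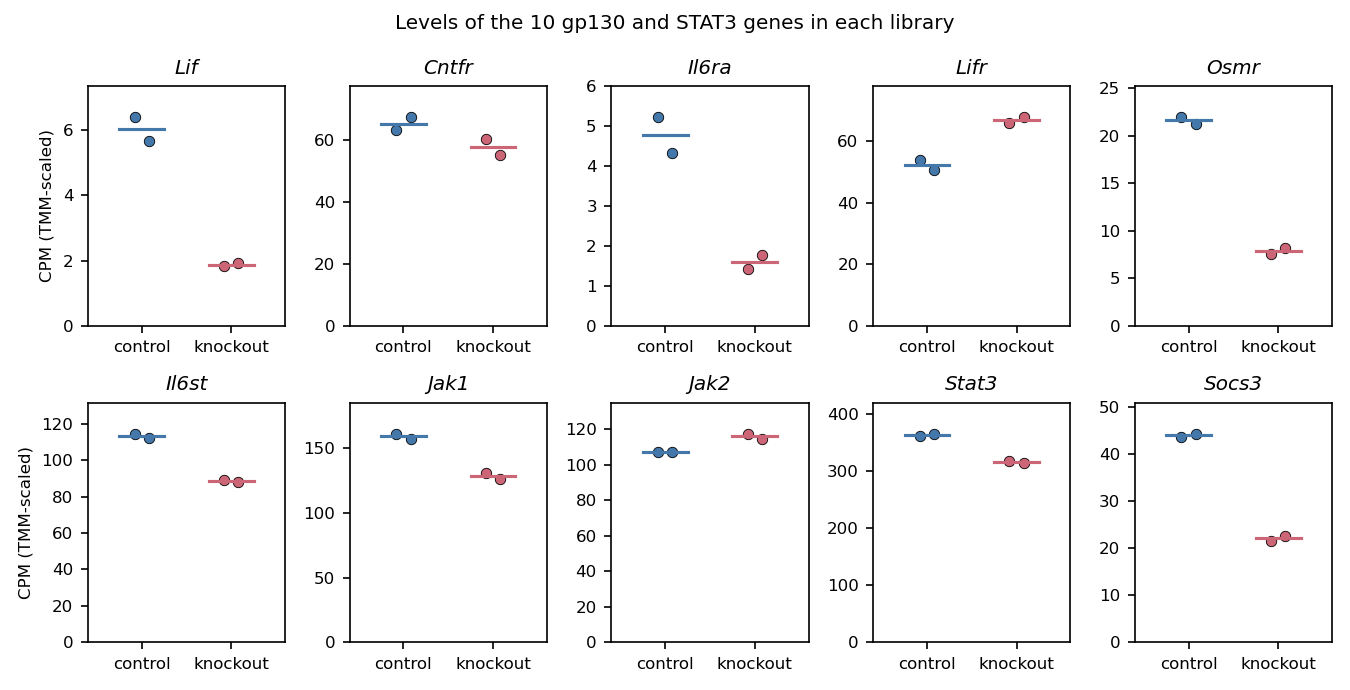
Level of each of the 10 genes (vertical axis, CPM on a linear scale that starts at 0) in the 2 control and 2 knockout libraries. Points are libraries and bars are group means. Mean levels drop from 6.04 to 1.88 CPM for Lif, from 21.6 to 7.90 CPM for Osmr and from 43.9 to 22.1 CPM for Socs3, while Lifr and Jak2 lie above control.

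Lif encodes leukemia inhibitory factor, a secreted cytokine that keeps neural stem cells self-renewing and can also turn them toward astrocytes (chr11:4257557-4272514, plus strand, mm10). Its counts were 169 and 160 in control and 52 and 50 in knockout, or 6.40 and 5.68 CPM against 1.84 and 1.92 CPM. Both knockout libraries were thus far below both controls for a transcript that was scarce throughout. The mean fell from 6.04 ± 0.509 to 1.88 ± 0.0596 CPM (SD, n = 2; log2 fold change -1.68 ± 0.17, adjusted p = 2.2e-10). The 95% interval ran from -2.02 to -1.33.

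Other ligands were mostly rare or absent. Of 8 listed, 3 were tested, of which 1 fell and 2 did not pass, where 33.1% of all genes tested passed. Osm, which encodes the ligand of Osmr, had 0 counts in all 4 libraries, which allows at most 0.106 to 0.115 CPM in each. Il6 had 2 counts in control replicate 2 and none elsewhere, and Il27 and Ebi3 were also too low to test. Il11 had 1 to 12 counts per library. Clcf1, which encodes a cytokine that acts through Cntfr, fell from 6.16 ± 0.677 to 3.19 ± 0.54 CPM (-0.94 ± 0.15, adjusted p = 5.0e-06). Ctf1 and Cntf were at 53 to 85 and 7 to 13 counts per library, and their intervals, -0.20 to 0.66 and -0.78 to 1.22, left room for a change in either direction.

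The receptor chains did not move together. Il6st encodes gp130, the chain shared by most complexes of the family (chr13:112464070-112510086, plus strand). It stood at 114.4 and 112.3 CPM in control and at 89.1 and 87.9 CPM in knockout. It fell by 21.9% (-0.36 ± 0.04, adjusted p = 1.6e-10). Both knockout libraries lay well below the lower control, with a narrow spread in each group.

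Osmr encodes the chain that joins gp130 to make the oncostatin M receptor, and is known to be raised in reactive astrocytes (chr15:6813577-6874969, minus strand). It was counted at 21.9 and 21.3 CPM in control and at 7.57 and 8.23 CPM in knockout. It fell by 63.4% (-1.45 ± 0.09, 95% interval -1.63 to -1.28, adjusted p = 1.4e-16), with little spread in either group.

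Il6ra encodes the chain that binds interleukin-6 itself (chr3:89864059-89913196, minus strand). With 138 and 122 counts in control and 40 and 46 in knockout, it was the scarcest of the 10 genes. Its level fell from 4.78 ± 0.633 to 1.59 ± 0.251 CPM (-1.58 ± 0.19, adjusted p = 1.5e-08). In the brain Il6ra is known from microglia. Of 7 tested microglia and macrophage markers 6 were lower and none higher in knockout, where 18.1% of all genes tested were lower. Among markers too rare to test, Aif1 was higher, with 2 and 3 counts in control and 15 and 8 in knockout. Cx3cr1, Ptprc and Tmem119, also too rare to test, were lower in both knockout libraries. The 11 listed markers summed to 7.34 and 9.01 CPM in control and to 3.71 and 2.73 CPM in knockout. All were scarce, and P2ry12, the highest in control, stood there at 1.325 and 1.774 CPM. No listed microglial marker was at 0 in all libraries, and the part of these cells in the Il6ra result was not tested. In bulk RNA, fewer cells of a type and less RNA per cell cannot be told apart.

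Lifr, the chain that pairs with gp130 to bind Lif (chr15:7090614-7197489, plus strand), went the other way. It stood at 53.8 and 50.7 CPM in control and at 65.8 and 67.8 CPM in knockout, a rise of 27.8% (0.35 ± 0.04, 95% interval 0.26 to 0.44, adjusted p = 3.4e-08). The lowest knockout library lay above the highest control. Receptor and ligand of the same complex thus differed in direction, with intervals that do not overlap.

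Cntfr encodes the chain that binds Cntf and sits in the membrane by a lipid anchor (chr4:41657498-41697089, minus strand). Its 63.2 and 67.2 CPM in control and 60.2 and 55.0 CPM in knockout gave a small fall (-0.18 ± 0.05, adjusted p = 0.0026). DESeq2 did not call it (adjusted p = 0.059), nor did edgeR with control replicate 2 (0.0517) or knockout replicate 2 (0.101) omitted. The listed receptors of other family members, Il11ra1 and Il27ra, did not pass, with log2 fold changes of -0.10 ± 0.09 and 0.03 ± 0.27.

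Jak1, the kinase on which gp130 signalling chiefly depends (chr4:101152367-101265282, minus strand), and Jak2 (chr19:29251828-29313080, plus strand) differed in opposite directions. Jak1 stood at 160.7 and 156.6 CPM in control and 130.8 and 126.0 CPM in knockout, and fell by 19.1% (-0.31 ± 0.03, adjusted p = 7.4e-10). Jak2 stood at 107.1 and 107.2 CPM in control and 117.5 and 114.8 CPM in knockout (0.12 ± 0.03, adjusted p = 0.0076). The Jak2 rise was the smallest difference of the 10 genes. It missed the threshold with DESeq2 (adjusted p = 0.096) and without knockout replicate 1 (0.0883). Of the remaining kinases of the family, Tyk2, which also binds gp130, had an interval of -0.23 to 0.0073, and Jak3, which serves other cytokine receptors, one of -0.29 to 0.19. Neither passed. Jak1 overlaps Raver2 on the opposite strand, and Stat3 overlaps Stat5a in the same way. The sources used here do not give the strand setting of the counting, and without strand the reads of such overlaps cannot be assigned with certainty.

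Stat3, the factor that carries the signal to the nucleus (chr11:100885098-100939540, minus strand), was the most abundant of the 10 genes. It was counted at 362.7 and 366.1 CPM in control and at 318.5 and 314.5 CPM in knockout. It fell by 13.1% (-0.20 ± 0.03, adjusted p = 2.5e-08). The difference was small, but it exceeded the spread of 2.41 and 2.82 CPM (SD) within the groups. Of 5 other STAT genes tested, 1 fell, none rose and 4 did not pass, with a median of -0.21. The share of all genes tested that passed was 33.1%. Stat5a, which serves growth hormone and several cytokines, was lower by 0.49 ± 0.15 on the log2 scale (adjusted p = 0.0114). DESeq2 did not call it (0.155), nor did edgeR with control replicate 1 (0.0797) or knockout replicate 1 (0.19) omitted. Stat2, Stat5b, Stat6 and Stat4 had adjusted p-values of 0.854, 0.46, 0.221 and 0.271.

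Socs3, whose protein closes the negative feedback loop (chr11:117966079-117970047, minus strand), was close to halved. Its counts were 1150 and 1247 in control and 609 and 587 in knockout. In CPM these were 43.5 and 44.2 against 21.5 and 22.6, with a wide gap between tight groups. Socs3 fell by 49.8% (-0.99 ± 0.06, 95% interval -1.11 to -0.88, adjusted p = 4.9e-17). This was the smallest p of the 10 genes.

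Few other inhibitors of JAK and STAT signalling passed the test. Of 15 other inhibitors tested, 1 fell, none rose and 14 did not pass, and the median log2 fold change was -0.07. Among all genes tested 33.1% passed, and their median was 0.0047. The gene that fell, Socs5, differed by 0.22 on the log2 scale (49.5 ± 0.56 to 42.7 ± 0.342 CPM, log2 fold change -0.22 ± 0.05, adjusted p = 0.00047). Socs4 (-0.15 ± 0.06), Socs2 (0.19 ± 0.09) and Cish (-0.27 ± 0.12), the STAT5-induced relative of Socs3, had adjusted p-values of 0.0614, 0.0782 and 0.0813. The log2 fold changes of the 15 genes lay between -0.32 and 0.19, against -0.99 for Socs3.

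**Figure D2:**
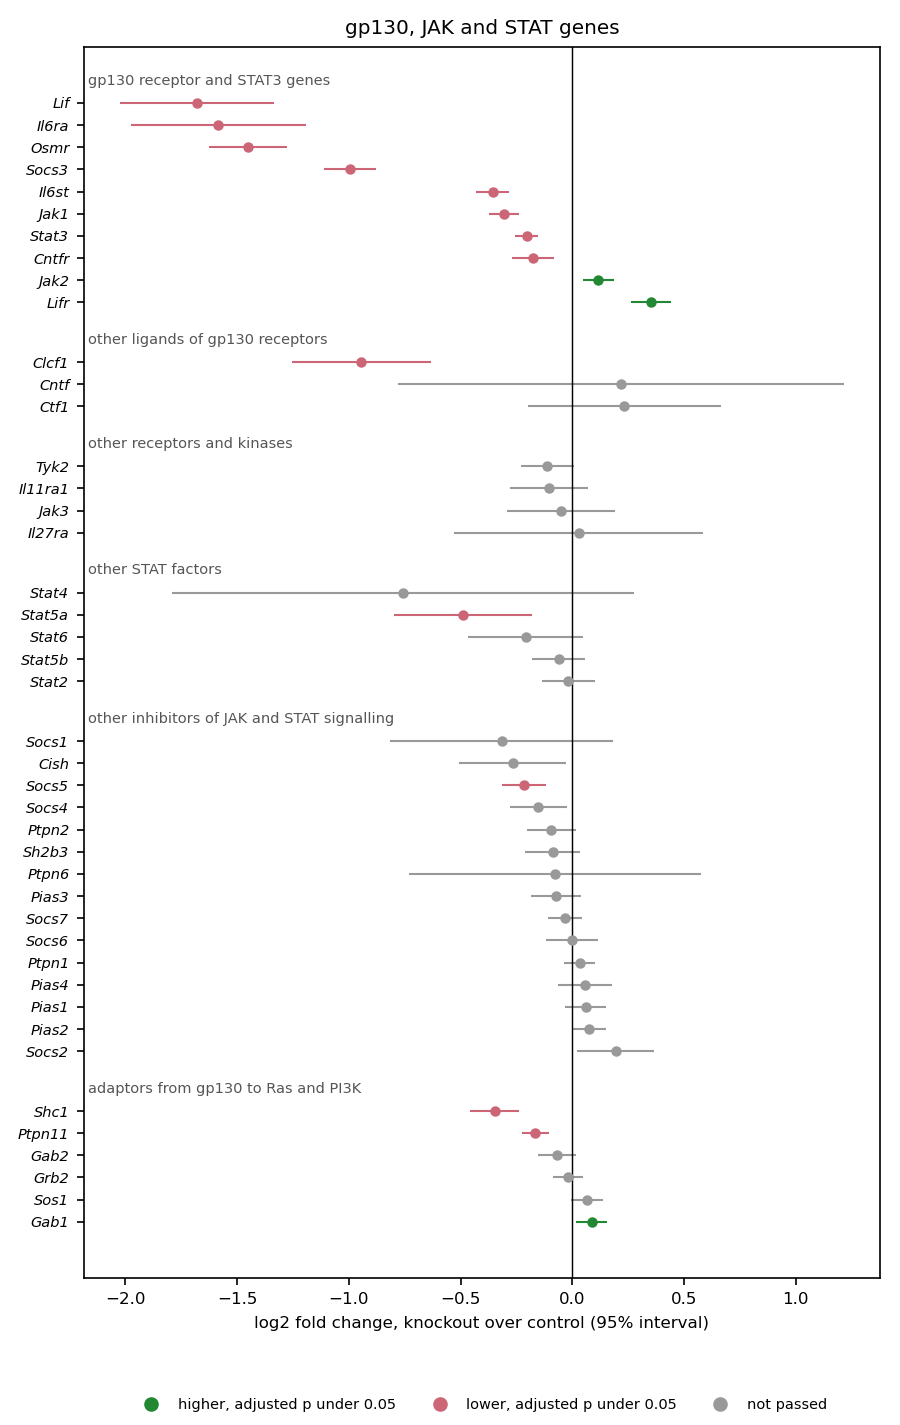
Log2 fold change of knockout over control with its 95% interval (horizontal axis) for the tested pathway genes of the lists, grouped by role. Lif, Il6ra, Osmr and Socs3 lie farthest to the left among the 10 gp130 receptor and STAT3 genes, while 14 of the 15 other inhibitors did not pass.

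Activated gp130 also feeds the Ras and PI3K pathways through adaptors. Of 6 tested, 2 fell and 1 rose, beside 18.1% of all genes tested that were lower and 15.1% that were higher. Ptpn11, which encodes the phosphatase SHP2 that docks on gp130 at the site Socs3 also binds, fell from 199.6 ± 3 to 177.9 ± 1.69 CPM (-0.17 ± 0.03, adjusted p = 2.1e-05). The adaptor gene Shc1 fell from 40.2 ± 0.104 to 31.7 ± 0.654 CPM (-0.35 ± 0.05, adjusted p = 2.1e-06). The docking protein gene Gab1 was higher by 0.09 ± 0.03 (adjusted p = 0.0495), a call lost in 6 of 13 alternatives, where its adjusted p reached 0.272. Sos1, Gab2 and Grb2 did not pass.

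Compared per kilobase of the longest coding transcript, the order of levels in control was Stat3 (60.3 CPM per kb), Cntfr (32.7), Jak1 (32.3), Jak2 (21.3), Socs3 (17.2), Il6st (13.1), Lifr (5.41), Osmr (3.93), Lif (1.5) and Il6ra (0.553). Cntfr and Jak1 overlapped between libraries and the other neighbours did not. In knockout Socs3 (8.64) came after Il6st (10.2), and the rest of the order was the same. With the length of all annotated exons instead, Jak2 moved above Cntfr and Jak1 in knockout. The gp130 chain was 2.36 and 2.46 times as abundant as Lifr per kb in the control libraries and 1.51 and 1.44 times in knockout. For Il6st over Osmr the ratio rose from 3.30 and 3.34 to 7.45 and 6.75. The size of such ratios depends on the transcript lengths used, while their change between groups does not.

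**Figure D3:**
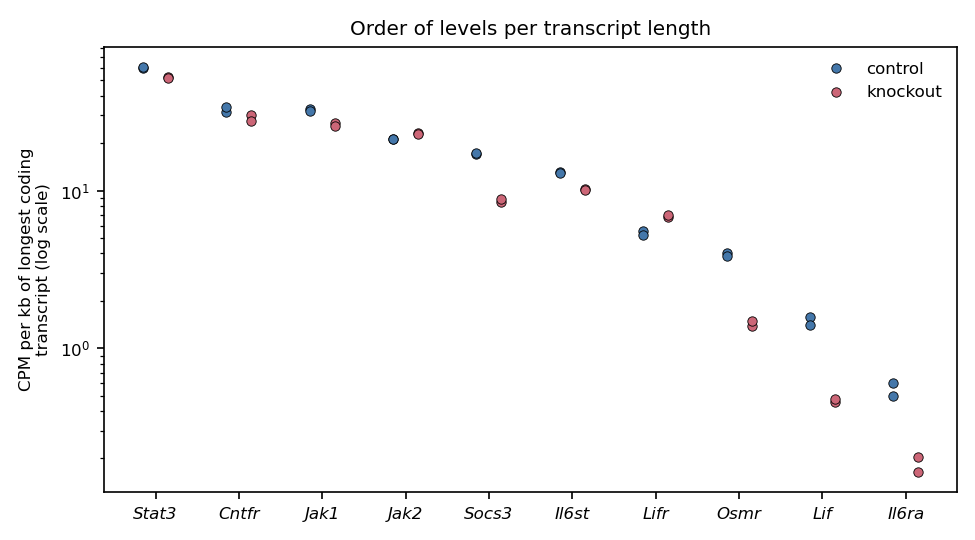
Level per kilobase of the longest coding transcript (vertical axis, CPM per kb, log scale) of the 10 genes in each library, ordered by the control mean. Stat3 is highest at 60.3 and Il6ra lowest at 0.553 CPM per kb in control, and Socs3 drops below Il6st in knockout.

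Genes known as STAT3 targets were read from a list of 28, of which 27 were tested. In knockout 22 were lower, 2 higher and 3 did not pass, with a median of -0.62 and 14 of the 27 differing by at least 1.5-fold. Over all genes tested 18.1% were lower and 15.1% higher, the median was 0.0047, and 5.75% were called with at least 1.5-fold. The list was drawn up with earlier results of these data known, so its direction is not independent evidence. Without Gfap, Lcn2, Serpina3n and Steap4, whose falls had been seen, 18 of 23 were lower and 2 higher, with a median of -0.46. These 23 genes belong to the same list, so their count is not independent evidence either. Several of these genes also answer to NF-kB, interferons or growth factors.

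The smallest p-values in the list belonged to genes of reactive astrocytes and the acute-phase response. Lcn2, which encodes a carrier of iron-binding siderophores, went from 96.2 and 98.1 CPM to 3.57 and 4.16 CPM. The protease inhibitor gene Serpina3n fell by 2.49 ± 0.04 and the astrocyte filament gene Gfap by 1.42 ± 0.02 on the log2 scale. Cp, which encodes the copper carrier ceruloplasmin, fell from 105.2 and 102.7 CPM to 33.3 and 33.5 CPM (-1.64 ± 0.04, adjusted p = 1.5e-27). Serpina3n has close paralogs among which the counting could have split reads.

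The further genes of the list named below, transcription factor genes first, were chosen for mention after their values were seen. Cebpd, an acute-phase activator, fell from 79.5 ± 2.09 to 22.6 ± 2.2 CPM (-1.82 ± 0.05), and Bcl3, a nuclear cofactor of NF-kB, from 22.4 ± 1.93 to 4.42 ± 0.392 CPM (-2.35 ± 0.10). The AP-1 gene Junb fell by 1.22 ± 0.04 on the log2 scale. Cebpb fell by 1.22 ± 0.13, but its control libraries differed widely at 22.0 and 36.3 CPM. On the log2 scale the difference was -0.81 without control replicate 2 and -1.53 without control replicate 1. Hif1a (-0.26 ± 0.03) and Myc (-0.17 ± 0.04), other transcription factor genes of the list, fell by smaller amounts. The metalloproteinase inhibitor gene Timp1 fell by 1.59 ± 0.06 and the cell cycle gene Ccnd1 by 0.62 ± 0.02. The genes that went the other way were Vegfa, the angiogenic factor (888.8 ± 4.58 to 1094 ± 16.4 CPM, 0.30 ± 0.02, adjusted p = 9.2e-15), and Birc5, which encodes the mitotic protein survivin (0.16 ± 0.05, adjusted p = 0.0124). The Birc5 call was lost in 4 of 13 alternatives, without control replicate 2 most clearly (0.09, adjusted p = 0.28). It was also lost without knockout replicate 2 (0.11, adjusted p = 0.189), with DESeq2 and with no low-count filter. Klf4, Fgl2 and Pim3 did not pass, with adjusted p-values of 0.0983, 0.29 and 0.821.

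**Figure D4:**
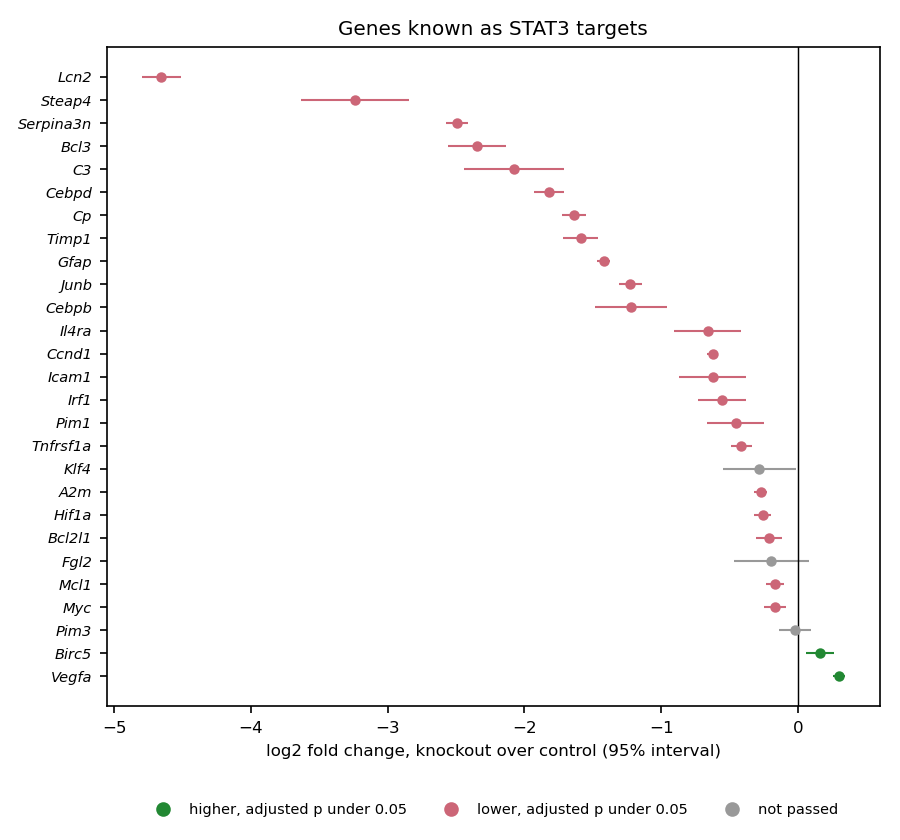
Log2 fold change of knockout over control with its 95% interval (horizontal axis) for the 27 tested genes known as STAT3 targets, in order of size. Most lie left of 0, from Lcn2 at -4.66, while Vegfa and Birc5 lie to the right.

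Promoter windows were at hand for 23 of the 28 target genes, and 6 of them (26.1%) held the TTCNNNGAA motif, against 9.55% of all genes in the table. The list was made of genes already known as STAT3 targets, so a share above that of all genes is not an independent result. In the other pathway lists the motif was found for Cish, which did not pass, among 8 inhibitors with a window and for Gab1, which was higher in knockout, among 5 adaptors. None of the 5 ligands, 3 receptors and kinases or 5 STAT genes with a window held it. The 6 target sites are shown with 10 bases on either side where the window allows, in capitals where they match, on the gene's own strand (GRCm38.p6), beside the Socs3 site.
Socs3: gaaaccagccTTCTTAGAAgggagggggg
Gfap: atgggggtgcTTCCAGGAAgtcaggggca
Steap4: ggttgaactcTTCCCGGAAactttgcttc
Icam1: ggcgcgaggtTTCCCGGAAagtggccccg
Irf1: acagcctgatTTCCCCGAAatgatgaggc
Tnfrsf1a: gcttccTTCCGTGAAattgacaaca
Fgl2: gcccgcccttTTCTGGGAActcagaacgc
The sites lie at chr11:117969502-117969530 (Socs3), chr11:102897184-102897212 (Gfap), chr5:7960346-7960374 (Steap4), chr9:21015888-21015916 (Icam1), chr11:53769914-53769942 (Irf1), chr6:125349473-125349497 (Tnfrsf1a) and chr5:21372627-21372655 (Fgl2). Steap4 and Icam1 share the same 9 letters. Beside Socs3 and Gfap, log2 fold changes were -3.24 ± 0.19 for Steap4, a metalloreductase gene, -0.62 ± 0.12 for the adhesion molecule gene Icam1, -0.55 ± 0.09 for the interferon regulatory factor gene Irf1 and -0.41 ± 0.04 for the TNF receptor gene Tnfrsf1a. Fgl2 had -0.19 ± 0.14 and did not pass. These genes were singled out for the match after their values were seen.

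Markers of several cell types moved with these results. Over all genes tested 18.1% passed as lower and 15.1% as higher. Of 8 astrocyte markers 6 were lower and 1 higher, and their summed level was 3149 and 3168 CPM in control against 2196 and 2191 CPM in knockout. Gfap, which is also in the STAT3 target list, made up much of that difference, and without it the sums were 2289 CPM in both control and 1869 CPM in both knockout libraries. Of 9 tested markers of mural cells and fibroblasts, which can also express Osmr, Lif and Socs3, 7 were lower and 2 higher, with sums of 253.8 to 260.7 CPM against 158.8 to 166.4 CPM. Without Cspg4, which rose and is also a marker of oligodendrocyte precursors, the sums were 188.3 and 183.7 CPM against 60.6 and 64.1 CPM. Most of these sums was collagen, with Col3a1 at 65.9 against 8.99, Col1a1 at 52.1 against 12.7 and Col1a2 at 37.7 against 19.5 CPM. The other marker that rose was Acta2, from 7.96 to 11.75 CPM (edgeR adjusted p = 3.3e-05). Choroid plexus markers were higher for 5 of 7, with sums of 210.5 to 218.1 CPM against 1338 to 1353 CPM. Most of that was Ttr, and without it the sums were 32.1 and 32.4 CPM against 67.2 and 62.8 CPM. Neuronal markers were higher for 4 of 8 and lower for 2, and endothelial markers higher for 1 of 6 and lower for 2. Oligodendrocyte precursor markers were higher for 3 of 5 and lower for 1. None of these lists had a gene at 0 in all libraries. In the erythroid list the 4 globin genes were at 0, and 1 gene was tested and did not pass. The part of cell composition in the falls of Lif, Osmr and Socs3 was not tested.

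The genes whose pattern over the 4 libraries lay nearest to that of a given gene were found among 12442 others by the Euclidean distance of log2 CPM after removing each gene's mean. Nearest to Socs3 were Adamts4 (distance 0.0156, 44.7 to 22.3 CPM), Loxl1 (0.0353) and Col15a1 (0.0398). Nearest to Osmr were Pdgfrb (0.0937, 8.02 to 2.88 CPM), H2-Q4 (0.101), which has close paralogs, and Gfap (0.116). Nearest to Stat3 were Nr1d2 (0.00406), Rprd1b (0.00739) and Rapgef6 (0.00786). With 4 libraries in 2 groups this likeness amounts to a similar fold change and spread.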

How the data were processed

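Poly(A) RNA of 2 control and 2 knockout samples, grouped by title, was sequenced with a dUTP strand-marking kit. The deposited tables hold unnormalized counts for each gene symbol, made with HISAT2 2.2.1 and HTSeq 0.12.4 on mm10, per the submitters' processing notes, which also name DESeq2 1.26.0. No annotation is named in the sources used here. The 5 summary lines per table (25.2% to 26.1% of entries) were left out. Counts were filtered with filterByExpr, scaled with TMM (trimmed mean of M values) and tested with edgeR 4.0.16 in R 4.3.3 (quasi-likelihood, legacy fit off, no block, threshold 0.05 after Benjamini-Hochberg adjustment). The steps were run on simulated counts with the same variation between replicates for every gene. Such counts cannot show how the steps behave where that variation differs between genes. With 2 against 2 libraries an exact permutation p cannot go below 0.333, so none was used. Floors cover counting error only, and reads carry no molecular identifiers.

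Positions and lengths came from GENCODE M21 (GRCm38, the assembly of mm10), and promoters from RefSeq (GRCm38.p6), matched by symbol for all 10 genes. Genes named were the 10 pathway genes, up to 4 genes with the smallest p per pathway list (all in lists of 6 or fewer), the 3 genes nearest to Socs3, Osmr and Stat3, and Prrc2b. A few listed genes are not reported here and were left out of the list counts. Further genes are marked as chosen after their values were seen. Single genes of the marker lists and the ligands too rare to test were also named outside this rule. These 10 genes and the lists were chosen with earlier results of these data known. Alternatives covered scaling, filters, DESeq2 1.42.0, limma 3.58.1 (voom), the legacy fit, a replicate block and leaving out each library.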

Additional observations from a re-analysis of the deposited data

How the results depend on the processing

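Each of the 10 genes kept its direction under all 13 alternatives, and all but Cntfr and Jak2 kept their call. The number called was 10 in 9 alternatives, 8 with DESeq2 and 9 without control replicate 2, knockout replicate 1 or knockout replicate 2. Over all genes the main count of 4974 became 2697 with DESeq2 (1055 higher and 1642 lower) and 3990 to 4285 when 1 library was left out. Upper quartile scaling turned the split from 2263 higher and 2711 lower to 2939 and 2288. With that scaling the median log2 fold change over all genes moved from 0.0047 to 0.0315. The causes were not tested.

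The labels give same-numbered libraries no shared source. The correlation of their deviations was -0.0165 over 15012 genes and 0.0922 over the 11094 genes with a mean log2 CPM of at least 3, so no pairing was assumed. With the replicate block 5323 genes and all 10 pathway genes were called, and Socs4 passed (-0.15, adjusted p = 0.0475). Of the further genes named, none past the threshold changed direction. Among those that missed it, signs turned when 1 library was left out for Ctf1 (log2 fold changes from -0.0847 to 0.475), Cntf (-0.0707 to 0.603), Il11ra1 (-0.219 to 0.0118), Jak3 (-0.131 to 0.0307), Il27ra (-0.18 to 0.198), Stat5b (-0.137 to 0.015), Stat2 (-0.0861 to 0.051), Pim3 (-0.0934 to 0.0524) and Fgl2 (-0.387 to 0.0138). With upper quartile scaling they turned for Stat2 (0.00904), Grb2 (0.00862) and Pim3 (0.0062). Fgl2 passed without control replicate 2 (adjusted p = 0.0361), Socs2 with upper quartile scaling (adjusted p = 0.0399) or without knockout replicate 1 (0.0433), and Sos1 with upper quartile scaling (0.0425). Rprd1b was lost with DESeq2 (adjusted p = 0.0506). Depth limits Osm, Il6, Il27, Ebi3 and Il11, which were too rare to test, and leaves wide intervals for Cntf, Stat4 and Il27ra.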
